A study of Mus musculus with 51 samples.

Results

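A set of 10 genes of the glucocorticoid and FOXO programme of muscle wasting was read in gastrocnemius muscle of mice. They are Fkbp5, Tsc22d3, Klf9, Klf15, Fbxo32, Trim63, Foxo1, Foxo3, Cebpd and Ddit4, taken by name from the 48321 gene symbols that each count table lists. These members were chosen with earlier results of these data known. A share of members called above that of all genes is therefore not independent support. All 10 passed the filter on low counts in both batches. The libraries are QuantSeq 3′ tag libraries, which count 1 end of each transcript, and each of the 51 came from 1 animal.

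The groups are as follows. Batch 1 held 5 Bmal1KO and 7 Control (Bmal1fx/fx) animals on high-fat diet, and 3 Bmal1KO and 4 Control (Bmal1fx/fx) animals on regular chow. Batch 2 held high-fat diet animals alone, with 4 Bmal1KO;VhlKO and 6 Control (Bmal1fx/fx;Vhlfx/fx), 4 VhlKO and 6 Control (Vhlfx/fx), and 4 Bmal1KO and 8 Control (Bmal1fx/fx). The series text describes the Bmal1 deletion as specific to skeletal muscle, so other cells of the tissue keep the gene. Each control carries the floxed alleles of its own line. The Cre driver, the age and sex of the animals, the length of the diets and the hour of harvest are not given in the labels used here.

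Glucocorticoids act through the glucocorticoid receptor, a nuclear receptor that enters the nucleus on binding hormone and turns on target genes. In muscle the receptor and the FOXO factors together raise the ubiquitin ligases that mark contractile proteins for the proteasome, a route used in fasting, disuse and wasting disease. FOXO proteins are kept out of the nucleus by AKT when insulin or IGF1 is high. BMAL1, encoded by Arntl, is the clock factor that binds E-boxes, and VHL marks the hypoxia-inducible factors (HIF) for breakdown.

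Fkbp5 encodes a co-chaperone that lowers the affinity of the receptor for hormone. Tsc22d3 encodes GILZ, an anti-inflammatory leucine zipper protein and a classic receptor target. Klf9 and Klf15 encode Krüppel-like factors induced by the receptor, and KLF15 drives amino acid breakdown in muscle. Foxo1 and Foxo3 encode FOXO factors. Fbxo32 and Trim63 encode the ubiquitin ligases atrogin-1 and MuRF1. Cebpd encodes C/EBP delta, a transcription factor of the acute phase, and Ddit4 encodes REDD1, an inhibitor of the growth kinase complex TORC1 that glucocorticoids and HIF both raise.

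RefSeq promoter windows were at hand for 8 of the 10 genes, in 10 windows on GRCm38.p6. In the 250 bases before each start, both strands were searched for the E-box CACGTG, for ACANNNTGT (a relaxed form of the receptor's palindrome) and for the FOXO site GTAAACA. These motifs stood in 6.02%, 5.84% and 3.17% of the same windows of all 32851 promoters. The 4 windows that hold any are shown because they let a reader see where the letters bound by BMAL1, the receptor and FOXO lie ahead of these genes. Capitals mark the motifs, and each sequence runs 5′ to 3′ on the strand of its gene.
Fkbp5, chr17:28486150-28486399, minus strand: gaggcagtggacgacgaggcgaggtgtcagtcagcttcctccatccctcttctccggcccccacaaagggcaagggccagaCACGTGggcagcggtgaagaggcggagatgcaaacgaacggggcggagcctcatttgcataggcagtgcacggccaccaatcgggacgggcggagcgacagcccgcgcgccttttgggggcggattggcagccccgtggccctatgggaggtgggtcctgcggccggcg
Klf9, chr19:23140976-23141225, plus strand: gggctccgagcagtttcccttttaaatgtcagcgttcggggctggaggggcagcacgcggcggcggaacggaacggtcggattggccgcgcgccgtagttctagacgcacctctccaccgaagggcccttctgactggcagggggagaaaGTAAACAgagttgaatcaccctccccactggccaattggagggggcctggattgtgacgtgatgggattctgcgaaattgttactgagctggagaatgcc
Klf15, chr6:90462326-90462575, plus strand: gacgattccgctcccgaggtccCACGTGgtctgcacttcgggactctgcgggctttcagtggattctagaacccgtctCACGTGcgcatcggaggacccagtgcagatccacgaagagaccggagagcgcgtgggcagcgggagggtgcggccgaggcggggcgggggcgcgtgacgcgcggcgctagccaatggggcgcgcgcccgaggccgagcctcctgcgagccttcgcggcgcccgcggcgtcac
Trim63, chr4:134314870-134315119, plus strand: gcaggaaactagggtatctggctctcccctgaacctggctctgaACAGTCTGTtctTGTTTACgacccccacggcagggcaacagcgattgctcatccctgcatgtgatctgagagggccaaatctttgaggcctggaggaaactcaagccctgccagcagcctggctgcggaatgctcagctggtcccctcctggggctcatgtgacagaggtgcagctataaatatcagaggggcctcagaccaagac
Fkbp5 had 1 E-box, which began 169 bases before the start. Klf15 had 2 E-boxes, at 228 and 172 bases. Klf9 had 1 FOXO site at 100 bases. Trim63 had the receptor motif at 206 bases and the FOXO site, in its reverse form, at 194 bases, with no overlap between them. The windows of Tsc22d3 (3 windows), Foxo1, Foxo3 and Ddit4 held none of these letters. Fbxo32 and Cebpd were not analysed here.

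On GRCm38 (GENCODE M21) the genes lie on 9 chromosomes. Only Foxo3 (chromosome 10, 42181841 to 42276755) and Ddit4 (chromosome 10, 59949669 to 59951834), both on the minus strand, share one. Cebpd (chromosome 16, 15887286 to 15891031, plus strand) is overlapped at its 3′ end by Spidr on the other strand, and the labels do not say whether the counting used strand. Counts of Cebpd are therefore uncertain, to a degree that was not tested. Spidr itself had at most 1.69 CPM in any library, while Cebpd had at least 6.45 CPM. If strand was not used, tags in the overlap could be left out of both genes, so these values do not measure the uncertainty.

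The libraries held 6945247 to 14717795 counts on genes. The 10 markers of skeletal muscle fibres summed to 84203 to 148749 CPM (counts scaled to library size, with TMM factors), with all of them read in every library. Arntl averaged 7.41 ± 1.83 CPM in Bmal1KO and 15.0 ± 2.65 CPM in control muscle on high-fat diet of batch 1 (SD, n = 5 and 7). In batch 2 it averaged 9.27 ± 1.16 CPM in Bmal1KO and 10.9 ± 1.59 CPM in control muscle (SD, n = 4 and 8), groups that overlapped, with a log2 change of -0.24 ± 0.13 (edgeR adjusted p = 0.239). Vhl averaged 1.69 ± 0.790 CPM in VhlKO and 3.09 ± 1.30 CPM in control muscle (SD, n = 4 and 6). Arntl was called lower in Bmal1KO muscle on high-fat diet in batch 1 (-1.02 ± 0.22, edgeR adjusted p = 0.00255). On chow it missed the threshold (-0.91 ± 0.28, edgeR adjusted p = 0.0821). Vhl was called lower in VhlKO muscle (-0.85 ± 0.30, edgeR adjusted p = 0.0217). In Bmal1KO;VhlKO muscle Arntl (-0.48 ± 0.13) and Vhl (-0.78 ± 0.26) were both called lower (edgeR adjusted p = 0.00213 and 0.0180). A 3′ tag may lie outside the deleted part, so neither gene is a full check of the labels. In batch 1 the chow libraries of Bmal1KO animal 1 and control animal 2 stood apart by lymphocyte markers (sums of 44.7 and 33.4 CPM, against at most 1.19 CPM in the other libraries of the batch). Calls of members and named pathway genes that rest on chow animals are given with and without them. In whole muscle, fewer cells of a type and less RNA per cell cannot be told apart.

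High-fat diet against chow was tested within each genotype of batch 1. In Bmal1KO muscle the glucocorticoid targets Fkbp5 and Klf9 and the ubiquitin ligase Fbxo32 were lower on high-fat diet, with log2 changes of -1.65, -0.72 and -1.23. In control muscle Tsc22d3, Klf9 and Fbxo32 were lower, with log2 changes of -0.64, -0.52 and -0.65. The log2 change was below 0 for all 10 genes in both genotypes. Over all 12762 genes fitted it was below 0 for 6548 in Bmal1KO muscle and 6620 in controls. The members were read in the same animals, so their signs are not independent. In Bmal1KO muscle 3 of 10 members were called lower, where 1.57% of 12762 fitted genes were (1.72% higher, 3.28% in either direction). In controls 3 of 10 were, where 0.854% of genes were (1.51% higher, 2.37% in either direction). The median log2 change of the members was -0.66 in Bmal1KO muscle and -0.65 in controls, against -0.009 and -0.011 over all genes fitted.

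**Figure D1:**
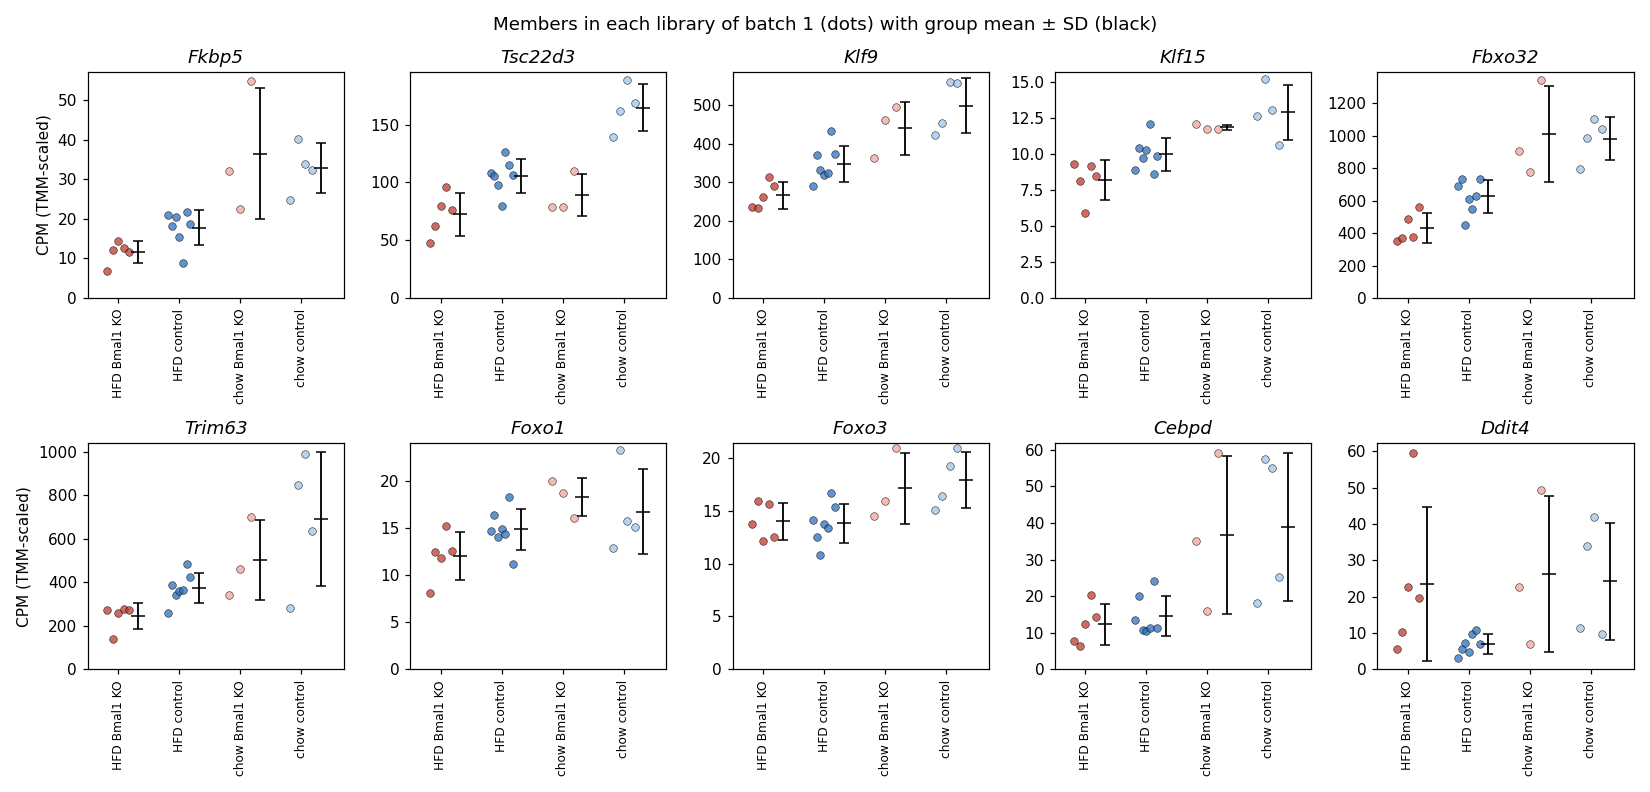
TMM-scaled CPM of each member (vertical axis, from 0) in the 19 libraries of batch 1, by group; dots are animals and black marks the group mean ± SD (n = 5, 7, 3 and 4 from left to right). Fkbp5 and Fbxo32 show no overlap between high-fat diet and chow in either genotype, while Trim63, Cebpd and Ddit4 spread widely among chow animals.

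Fkbp5 is given first of the receptor targets. In Bmal1KO muscle on high-fat diet it had 6.85, 12.2, 14.4, 12.7 and 11.6 CPM, against 32, 22.5 and 54.7 CPM in Bmal1KO muscle on chow. In control muscle it ran 8.95 to 21.7 (median 18.6) CPM on high-fat diet, against 24.7, 40.1, 33.7 and 32.2 CPM on chow. No animal on high-fat diet reached the lowest chow animal of its genotype. The log2 change was -1.65 ± 0.29 in Bmal1KO muscle (edgeR adjusted p = 0.00415) and -0.88 ± 0.24 in controls, where it missed the threshold (adjusted p = 0.0769).

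Tsc22d3 was called for diet in controls alone. In Bmal1KO muscle it had 47.8, 62.3, 79.5, 96.4 and 76.0 CPM on high-fat diet, against 78.5, 79.1 and 109.7 CPM on chow, and these groups overlapped (log2 change -0.30 ± 0.17, edgeR adjusted p = 0.421). It ran 79.6 to 126 (median 106) CPM in controls on high-fat diet, against 139, 162, 189 and 169 CPM in controls on chow, with no overlap (log2 change -0.64 ± 0.15, adjusted p = 0.0177). The difference between those diet effects was 0.34 ± 0.23, with an interval from -0.13 to 0.82.

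Of the Krüppel-like factors, Klf9 had 236, 233, 261, 314 and 289.8 CPM in Bmal1KO muscle on high-fat diet, against 363, 463 and 495 CPM in Bmal1KO muscle on chow. Controls ran 290.4 to 432 (median 332) CPM on high-fat diet, against 422, 454, 561 and 558 CPM on chow. It was the only member called for diet in both genotypes beside Fbxo32 (-0.72 ± 0.13, edgeR adjusted p = 0.000726, in Bmal1KO muscle, and -0.52 ± 0.11, adjusted p = 0.00632, in controls). Klf15 averaged 8.21 ± 1.37 CPM in Bmal1KO muscle on high-fat diet and 11.9 ± 0.192 CPM in Bmal1KO muscle on chow (SD, n = 5 and 3), and in controls 9.97 ± 1.15 CPM on high-fat diet and 12.9 ± 1.89 CPM on chow (SD, n = 7 and 4). The Bmal1KO groups did not overlap, yet Klf15 missed the threshold in both genotypes (log2 changes -0.53 ± 0.17 and -0.38 ± 0.14, edgeR adjusted p = 0.0726 and 0.192).

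Neither FOXO gene passed for diet. Foxo1 gave -0.59 ± 0.18 in Bmal1KO muscle (edgeR adjusted p = 0.0561) and -0.18 ± 0.15 in controls, with an interval from -0.49 to 0.13 in the controls. Foxo3 gave -0.29 ± 0.16 in Bmal1KO muscle and -0.37 ± 0.13 in controls (adjusted p = 0.362 and 0.158). Foxo1 ranged over 8.14 to 23.3 CPM and Foxo3 over 10.8 to 20.9 CPM in the 19 libraries of batch 1.

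Of the ubiquitin ligases, Fbxo32 fell on high-fat diet in both genotypes. In Bmal1KO muscle Fbxo32 had 351, 370.1, 485, 377 and 562 CPM on high-fat diet, against 905, 776 and 1342 CPM on chow. In controls it ran 448 to 732 (median 628) CPM on high-fat diet, against 792, 987, 1101 and 1041 CPM on chow. Neither pair of groups overlapped, and the log2 change was -1.23 ± 0.19 in Bmal1KO muscle (edgeR adjusted p = 0.000801) and -0.65 ± 0.16 in controls (adjusted p = 0.0354). Trim63 had 274, 138, 257, 276 and 274 CPM in Bmal1KO muscle on high-fat diet, against 340.3, 463 and 701 CPM in Bmal1KO muscle on chow. In controls it ran 259.6 to 483 (median 366) CPM on high-fat diet, against 281, 849.7, 988 and 638 CPM on chow, where animal 1 lay within the high-fat diet range. Its log2 changes of -1.04 ± 0.34 and -0.88 ± 0.29 missed the threshold (edgeR adjusted p = 0.121 and 0.147).

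Cebpd had 7.74, 6.45, 12.4, 20.3 and 14.4 CPM in Bmal1KO muscle on high-fat diet, against 35.0, 15.9 and 59.1 CPM in Bmal1KO muscle on chow, and in controls it ran 10.5 to 24.2 (median 11.4) CPM on high-fat diet, against 18.2, 57.5, 55.1 and 25.2 CPM on chow. Ddit4 ran 3.01 to 10.8 (median 6.82) CPM in controls on high-fat diet, against 11.4, 33.9, 41.9 and 9.59 CPM in controls on chow. Chow control animals 2 and 3 were the highest of their group in Trim63, Cebpd and Ddit4 alike. The log2 changes of Cebpd (-1.58 ± 0.48 and -1.44 ± 0.41) and of Ddit4 in controls (-1.85 ± 0.63) missed the threshold (edgeR adjusted p = 0.0938, 0.0836 and 0.175).

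In controls the calls of Tsc22d3 and Fbxo32 depended on single libraries. Without chow control animal 2, 3 or 4, Tsc22d3 had an adjusted p of 0.0602, 0.0834 or 0.0596, and Fbxo32 of 0.119, 0.124 or 0.104. Fbxo32 also missed the threshold without high-fat diet control animal 3, 4, 5 or 6 (adjusted p from 0.0528 to 0.0745). Without both lymphocyte-rich libraries Klf9 alone was called in controls, with Tsc22d3 at an adjusted p of 0.0628 and Fbxo32 at 0.128. In Bmal1KO muscle the 3 members then called were again Fkbp5, Klf9 and Fbxo32. Mitochondrial transcripts were 30.1 to 42.4% of counts in high-fat diet and 23.3 to 32.9% in chow libraries, and macrophage markers summed to 63.0 to 102 CPM in high-fat diet and 36.6 to 83.2 CPM in chow libraries. In Bmal1KO muscle adipocyte markers summed to 310 to 512 CPM on high-fat diet, against 162 to 387 CPM on chow, with 2 of 7 called higher. In controls they summed to 264 to 528 CPM on high-fat diet, against 254 to 693 CPM on chow, with 1 called higher and 1 lower. Their part in the result was not tested.

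A difference of the diet effect between genotypes was called for 0 of 12762 genes (0%) by edgeR, with 575 at an unadjusted p under 0.05, and for 3 by DESeq2. Among the members Fbxo32 had the smallest unadjusted p, 0.0305, with a difference of -0.58 ± 0.25 (interval from -1.10 to -0.06; adjusted p = 1). For Fkbp5 the difference was -0.77 ± 0.38 (interval from -1.58 to 0.04) and for Ddit4 1.68 ± 0.96 (interval from -0.36 to 3.73). Without both lymphocyte-rich libraries the differences were -0.66 for Fbxo32, -0.97 for Fkbp5 and 1.38 for Ddit4, and again 0 members were called. No member was thus shown to respond more to diet in one genotype than in the other.

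Loss of Bmal1 was compared with its floxed control in 3 settings, and Tsc22d3 was lower in all 3. On high-fat diet in batch 1 Tsc22d3, Klf9 and Fbxo32 fell in Bmal1KO muscle, which is 3 of 10 members lower where 5.18% of genes were (3.82% higher, 9.00% in either direction). On chow Tsc22d3 was the only member called, 1 of 10 lower where 2.29% of genes were (1.55% higher, 3.84% in either direction). In batch 2 Fkbp5, Tsc22d3, Fbxo32, Trim63 and Cebpd fell, 5 of 10 lower where 6.96% of 13093 genes were (6.94% higher, 13.9% in either direction). The diet and knockout comparisons of batch 1 share their animals, so their values are not independent.

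Tsc22d3 is set out first. In batch 1 the values given above for Bmal1KO muscle on high-fat diet lay mostly below the control range, with 1 of 5 animals inside it (log2 change -0.54 ± 0.14, edgeR adjusted p = 0.0138). On chow all 3 Bmal1KO animals lay below all 4 controls (-0.89 ± 0.18, adjusted p = 0.00495). In batch 2 it had 81.5, 107, 109 and 97.1 CPM in Bmal1KO muscle, against 147 to 185 (median 149) CPM in controls, with no overlap (-0.68 ± 0.10, adjusted p = 2.51e-06). Without both lymphocyte-rich libraries the chow value of Tsc22d3 was -0.81 with an adjusted p of 0.0902, and no member was then called on chow.

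Fkbp5 had 11.0, 11.8, 12.5 and 9.16 CPM in Bmal1KO muscle of batch 2, against 11.4 to 26.8 (median 17.8) CPM in controls, 2 of which lay within the knockout range. Its log2 change was -0.71 ± 0.17 in batch 2 (edgeR adjusted p = 0.00439, and 0.0590 when fitted with its own groups alone) and -0.62 ± 0.24 in batch 1 on high-fat diet (adjusted p = 0.155). On chow it was 0.15 ± 0.30, with an interval from -0.47 to 0.78. Klf9 averaged 282 ± 42.3 CPM in Bmal1KO and 339 ± 30.8 CPM in control muscle of batch 2 (SD, n = 4 and 8), with a log2 change of -0.27 ± 0.10 that missed the threshold (adjusted p = 0.0578) after -0.39 ± 0.10 in batch 1 (adjusted p = 0.0119). Without scaling factors none of Tsc22d3, Klf9 and Fbxo32 passed on high-fat diet in batch 1 and Ddit4 did, at 1.97. In batch 1 the call of Klf9 was lost without Bmal1KO animal 2 (adjusted p = 0.0517). Klf15 gave -0.37 ± 0.13 in batch 2 and -0.28 ± 0.14 in batch 1 (edgeR adjusted p = 0.0568 and 0.243).

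For the ubiquitin ligases the batches differed in strength of the call. Fbxo32 had 319, 266, 258 and 263 CPM in Bmal1KO muscle of batch 2, against 399.8 to 624 (median 497) CPM in controls, with no overlap (log2 change -0.85 ± 0.12, edgeR adjusted p = 6.92e-06). In batch 1 on high-fat diet the log2 change was -0.54 ± 0.15 (adjusted p = 0.0289), and leaving out any 1 of 6 libraries (Bmal1KO animals 1, 2 and 4, control animals 1, 2 and 7) raised the adjusted p to between 0.0551 and 0.0866. On chow Fbxo32 gave 0.04 ± 0.20, with an interval from -0.37 to 0.45. Trim63 had 219, 278, 248 and 252 CPM in Bmal1KO muscle of batch 2, against 254 to 483 (median 328) CPM in controls, and the groups overlapped (-0.51 ± 0.17, adjusted p = 0.0453). That call was lost without any 1 of 7 of its 12 libraries, the 4 Bmal1KO animals and control animals 9, 14 and 15 (adjusted p from 0.0582 to 0.148) and in 5 of the 9 other alternatives (adjusted p from 0.0600 by limma on the normalized counts to 0.305 with the replicate number as a block). In batch 1 Trim63 gave -0.62 ± 0.28 on high-fat diet (adjusted p = 0.231) and -0.46 ± 0.36 on chow (adjusted p = 0.671).

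**Figure D2:**
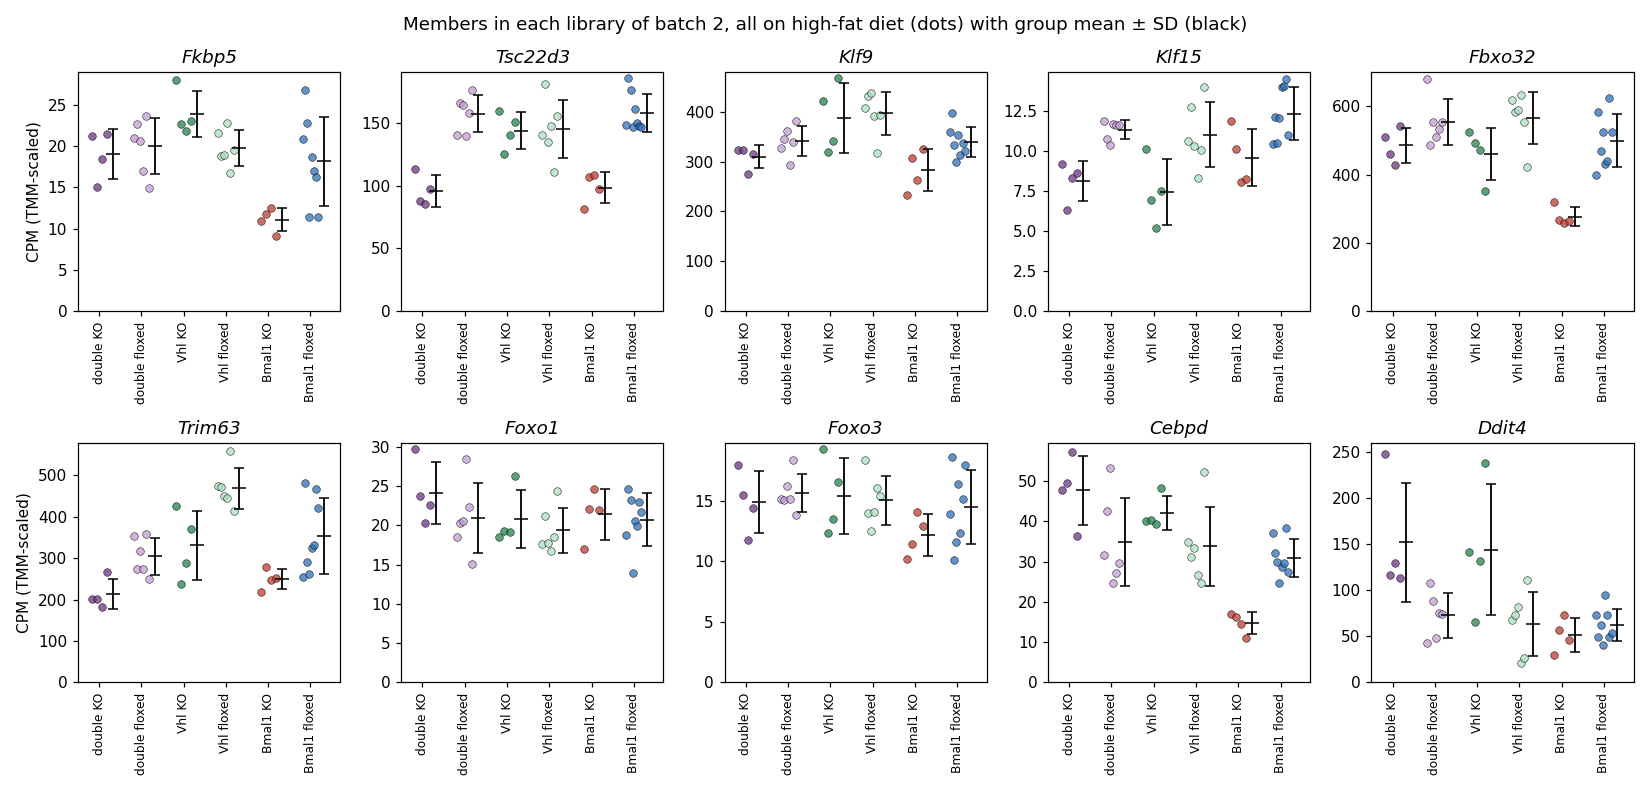
TMM-scaled CPM of each member (vertical axis, from 0) in the 32 libraries of batch 2, all on high-fat diet, by group; dots are animals and black marks the group mean ± SD (n = 4, 6, 4, 6, 4 and 8 from left to right). Tsc22d3 sits low in both groups that lack Bmal1, Fbxo32 and Cebpd sit low in the Bmal1 knockout, and Ddit4 sits high in most animals that lack Vhl.

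Cebpd had 16.9, 16.3, 14.6 and 11.0 CPM in Bmal1KO muscle of batch 2, against 24.7 to 38.5 (median 29.8) CPM in controls, with no overlap. Its log2 change there was -1.08 ± 0.21 (edgeR adjusted p = 0.000368), while in batch 1 on high-fat diet it was -0.23 ± 0.41 (interval from -1.10 to 0.63). Ddit4 had log2 changes of opposite sign in the batches. It had 5.66, 10.2, 22.6, 59.4 and 19.7 CPM in Bmal1KO muscle of batch 1 on high-fat diet, against 3.01 to 10.8 (median 6.82) CPM in controls, and 29.5, 56.5, 73.7 and 46.3 CPM in Bmal1KO muscle of batch 2, against 41.1 to 94.6 (median 57.7) CPM in controls. All controls of batch 2 lay above all high-fat diet controls of batch 1. The log2 changes of 1.79 ± 0.60 and -0.26 ± 0.38 missed the threshold (edgeR adjusted p = 0.0812 and 0.756).

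Both batches were then put in 1 fit of 12565 genes with a batch term. Fkbp5, Tsc22d3, Klf9, Klf15, Fbxo32, Trim63 and Cebpd were lower, 7 of 10 members where 11.3% of genes were (11.1% higher, 22.4% in either direction). The largest of these were -0.68 ± 0.11 for Fbxo32 (edgeR adjusted p = 2.56e-05), -0.65 ± 0.16 for Fkbp5 (0.00361) and -0.63 ± 0.20 for Cebpd (0.0277). In the 32 libraries of batch 2 Foxo1 ranged over 14.0 to 29.7 CPM and Foxo3 over 10.1 to 19.3 CPM. Over both batches Foxo1 gave -0.11 ± 0.10 (interval from -0.31 to 0.09), Foxo3 -0.10 ± 0.09 (interval from -0.29 to 0.09) and Ddit4 0.73 ± 0.38 (interval from -0.06 to 1.51). No member's knockout effect differed between batches at the threshold, where 0.00796% of genes did. The difference (batch 2 minus batch 1) was -2.06 ± 0.61 for Ddit4 (unadjusted p = 0.00277, adjusted p = 0.785) and -0.85 ± 0.36 for Cebpd (unadjusted p = 0.0305, adjusted p = 0.862). Without scaling factors Klf15 and Cebpd missed the threshold (adjusted p = 0.0919 and 0.0775). The call of Cebpd over both batches was also lost without Bmal1KO animal 2 of batch 1, or 7, 8 or 9 of batch 2 (edgeR adjusted p from 0.0522 to 0.0642).

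Marker sums were read beside these results. In batch 2 the 7 macrophage markers summed to 71.0 to 88.4 CPM in Bmal1KO muscle, against 85.2 to 152 CPM in controls, with all 7 log2 changes below 0 and 1 called. In batch 1 on high-fat diet they summed to 68.1 to 101 CPM in Bmal1KO muscle, against 63.0 to 102 CPM in controls, with 0 called. The fibre markers summed to 127380 to 132245 CPM in Bmal1KO muscle of batch 2, against 130453 to 142925 CPM in controls. In batch 1 on high-fat diet they summed to 97249 to 121763 CPM in Bmal1KO muscle, against 111377 to 136419 CPM in controls, and over both batches 1 of the 10 was called higher and 4 lower. The part of these markers in the results of Bmal1 loss was not tested.

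**Figure D3:**
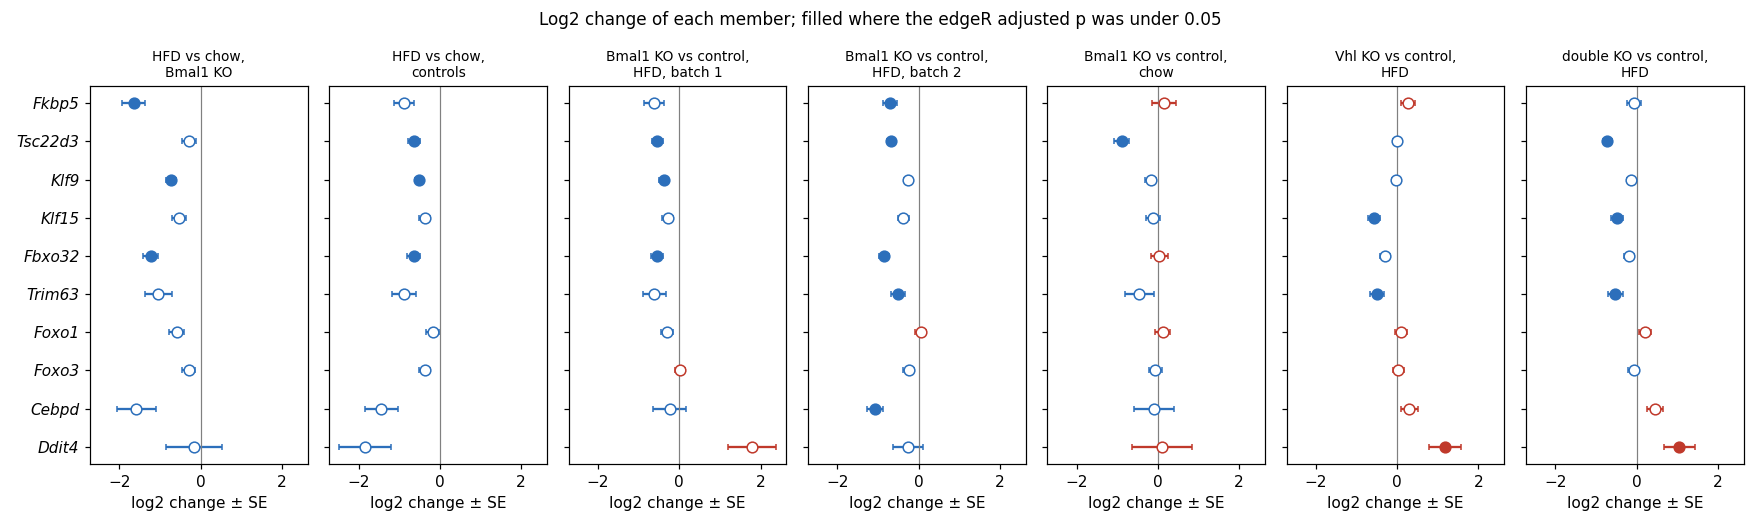
Log2 change ± SE of each member (horizontal axis) in 7 comparisons, high-fat diet over chow or knockout over its floxed control; red is above 0, blue below, and filled points passed an edgeR adjusted p of 0.05. Tsc22d3 is filled and below 0 in all 3 Bmal1 knockout panels and in the double knockout, and Ddit4 is filled and above 0 in both panels with Vhl loss. Without library scaling factors the Vhl and double knockout panels shift up by 0.35 and 0.37 in the median of all genes, and Klf9 and Fbxo32 then lie above 0 in both, Tsc22d3 in the Vhl panel, and Fkbp5 and Foxo3 in the double knockout panel.

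Vhl loss, alone or with Bmal1 loss, was compared with its own floxed controls on high-fat diet. Ddit4 was higher and Klf15 and Trim63 were lower in both VhlKO and Bmal1KO;VhlKO muscle, and Tsc22d3 was also lower in the double knockout. In VhlKO muscle 1 of 10 members rose and 2 fell, where 17.7% and 19.5% of genes did (37.2% in either direction). In Bmal1KO;VhlKO muscle 1 rose and 3 fell, where 17.4% and 18.1% of genes did (35.4% in either direction). The share of members called was thus near the share of all genes called, and the medians of 0.0067 and -0.11 lay near those of all genes (0.0086 and 0.014).

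Ddit4 had 249, 117, 130.3 and 114 CPM in Bmal1KO;VhlKO muscle, against 42.3 to 108 (median 75) CPM in its controls, with no overlap. In VhlKO muscle it had 141, 66.0, 132 and 238 CPM, against 20.5 to 111 (median 70.7) CPM in its controls, with 1 of the 4 knockouts below 4 of the 6 controls. The log2 change was 1.06 ± 0.38 in the double knockout (edgeR adjusted p = 0.0313) and 1.17 ± 0.38 in the Vhl knockout (adjusted p = 0.0172). These calls rested on single animals. Without Bmal1KO;VhlKO animal 1 the double knockout value was 0.72 (adjusted p = 0.180), without its control animal 1 or 4 the adjusted p was 0.0693 or 0.0632, and without VhlKO animal 4 the Vhl value was 0.83 (adjusted p = 0.118). Fitted with its own groups alone, the Vhl value had an adjusted p of 0.11, and with no filter on low counts the double knockout value had one of 0.0647.

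Klf15 had 9.21, 6.33, 8.32 and 8.61 CPM in Bmal1KO;VhlKO muscle, against 10.4 to 11.9 (median 11.6) CPM in its controls, with no overlap (log2 change -0.49 ± 0.14, edgeR adjusted p = 0.00689, and 0.0537 without Bmal1KO;VhlKO animal 2). In VhlKO muscle it had 10.1, 6.93, 5.20 and 7.53 CPM, against 8.31 to 14.0 (median 10.5) CPM in its controls (-0.58 ± 0.15, adjusted p = 0.00185). Trim63 had 202, 201, 182 and 266 CPM in the double knockout, against 251 to 359 (median 296) CPM in its controls, and 427, 238, 288 and 370.3 CPM in VhlKO muscle, against 413 to 559 (median 461) CPM in its controls. Its log2 changes were -0.52 ± 0.18 and -0.50 ± 0.18 (adjusted p = 0.0243 and 0.0264). The call of Trim63 was lost without any 1 of 5 libraries in the double knockout (Bmal1KO;VhlKO animals 1, 2 and 3, control animals 1 and 5) and of 3 in the Vhl knockout (VhlKO animals 2 and 3, control animal 5), with an edgeR adjusted p of up to 0.120.

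Tsc22d3 had 113, 87.4, 85.5 and 97.1 CPM in Bmal1KO;VhlKO muscle, against 139.7 to 176 (median 161) CPM in its controls, with no overlap (log2 change -0.72 ± 0.10, edgeR adjusted p = 7.66e-07). In VhlKO muscle it had 159.5, 125, 140.3 and 150.3 CPM, against 111 to 181 (median 144) CPM in its controls, and the groups overlapped fully (-0.01 ± 0.10, interval from -0.22 to 0.19). The remaining genes were not called in either comparison. Fkbp5 gave -0.07 ± 0.17 in the double knockout (interval from -0.42 to 0.28) and 0.27 ± 0.17 in the Vhl knockout (interval from -0.08 to 0.63). Fbxo32 gave -0.19 ± 0.13 (adjusted p = 0.254) and -0.30 ± 0.13 (adjusted p = 0.0662). Klf9 gave -0.14 ± 0.10 and -0.04 ± 0.10, Foxo1 0.20 ± 0.15 and 0.09 ± 0.15, and Foxo3 -0.07 ± 0.14 and 0.03 ± 0.14, in the same order. Cebpd gave 0.45 ± 0.19 (adjusted p = 0.0735) and 0.30 ± 0.20 (adjusted p = 0.245).

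Marker sums of other cell types moved with Vhl loss, as did those of fibres. Red cell markers summed to 3148 to 5277 CPM in the double knockout, against 867 to 1238 CPM in its controls, and to 5824 to 7031 CPM in VhlKO muscle, against 877 to 1549 CPM in its controls. Endothelial markers summed to 182 to 251 CPM in the double knockout, against 110 to 124 CPM in its controls, and to 228 to 292 CPM in VhlKO muscle, against 110 to 128 CPM in its controls. Fibre markers were lower, at 97452 to 102089 CPM in the double knockout, against 136972 to 144775 CPM in its controls, and at 84203 to 100198 CPM in VhlKO muscle, against 121390 to 148749 CPM in its controls. Their part in the results of Klf15, Trim63, Ddit4 and Tsc22d3 was not tested. Without scaling factors 7 members passed in VhlKO muscle, all higher, against 1 higher and 2 lower with TMM, while 44.4% of all genes were called higher and 5.22% lower. The double knockout then had 4 members higher and 1 lower, against 1 higher and 3 lower with TMM, while 47.6% of all genes were called higher and 5.94% lower. Without scaling factors Klf15 was -0.13 (adjusted p = 0.486) and Trim63 -0.17 (adjusted p = 0.400) in the double knockout, and in VhlKO muscle they were -0.24 (adjusted p = 0.212) and -0.17 (adjusted p = 0.423).

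The double knockout effect was set against the Bmal1 knockout effect by subtraction, each against its own controls, and the difference also holds the effect of Vhl loss itself. Fbxo32 and Cebpd, both low in the Bmal1 knockout of batch 2, were not called lower in the double knockout, and the difference was called for both. That is 2 of 10 members, both higher, where 7.69% of genes were (9.04% lower, 16.7% in either direction). The share of members called in either direction was thus near that of all genes. Fbxo32 had 511, 459, 428 and 543 CPM in Bmal1KO;VhlKO muscle, against 488 to 679 (median 544) CPM in its controls, and the difference of effects was 0.66 ± 0.17 (edgeR adjusted p = 0.00784). Cebpd had 47.7, 49.5, 57.1 and 36.3 CPM in Bmal1KO;VhlKO muscle, against 24.6 to 53.2 (median 30.6) CPM in its controls, with a difference of 1.52 ± 0.28 (adjusted p = 0.000294). Both calls held with each of 22 libraries left out in turn. Fbxo32 missed the threshold in 1 of 9 other alternatives, the replicate block (edgeR adjusted p = 0.0769), and Cebpd in 0. The Bmal1 effect subtracted for Cebpd was the -1.08 ± 0.21 of batch 2, while batch 1 on high-fat diet gave -0.23 ± 0.41. Fkbp5 gave 0.63 ± 0.24 (adjusted p = 0.0738) and Ddit4 1.32 ± 0.54 (adjusted p = 0.10).

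Tsc22d3 did not show such a difference between the double and the Bmal1 knockout (-0.04 ± 0.14, interval from -0.33 to 0.25). Against the Vhl effect it did, with -0.70 ± 0.14 (edgeR adjusted p = 0.00131). It was the 1 member called in that contrast, which called 4.06% of genes lower (4.51% higher, 8.56% in either direction). Klf15 (0.09 ± 0.21, interval from -0.33 to 0.51) and Trim63 (-0.01 ± 0.25, interval from -0.52 to 0.49) were not called there.

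Ranked from the lowest group mean within batch 2, Tsc22d3 averaged 95.8 ± 12.7 CPM in Bmal1KO;VhlKO and 98.5 ± 12.4 CPM in Bmal1KO muscle (SD, n = 4 each), neighbours within 1 SD of each other. The next group was VhlKO at 144 ± 14.6 CPM, and the 3 control groups above it, up to 158 ± 15.1 CPM in Control (Bmal1fx/fx), lay within 1 SD of it. Fbxo32 was lowest in Bmal1KO muscle at 276 ± 28.4 CPM, then 461 ± 75.9 CPM in VhlKO, and the groups above, up to 566 ± 76.8 CPM in Control (Vhlfx/fx), overlapped with their neighbours. In batch 1 Fbxo32 averaged 429 ± 90.9 CPM in high-fat diet Bmal1KO muscle, 626 ± 103 CPM in high-fat diet controls, 981 ± 134 CPM in chow controls and 1008 ± 296 CPM in chow Bmal1KO muscle, of which the chow groups overlapped fully and the high-fat diet groups in part.

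Covariation of the members among animals of the same group was read after each group's mean was taken out. Over the 19 libraries of batch 1, 39 of the 45 pairs had a positive Pearson r of log2 CPM, with a median of 0.37, and over the 32 libraries of batch 2 this held for 37 pairs, with a median of 0.21. By 100000 permutations of animals within groups, two-sided and adjusted over 45 pairs, 3 pairs passed in batch 1 and 5 in batch 2. With the 2 libraries farthest from the median of the first gene left out, 0 pairs passed in either batch. The r of the called pairs kept its sign there, in fewer libraries, with 0.70 against 0.70 over all libraries for Klf9 with Trim63, 0.75 against 0.81 for Cebpd with Ddit4 and 0.38 against 0.54 for Klf9 with Ddit4. All members were read in the same libraries, so they share depth and scaling. The share of positive pairs was not computed for other genes, so these counts do not set the members apart.

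**Figure D4:**
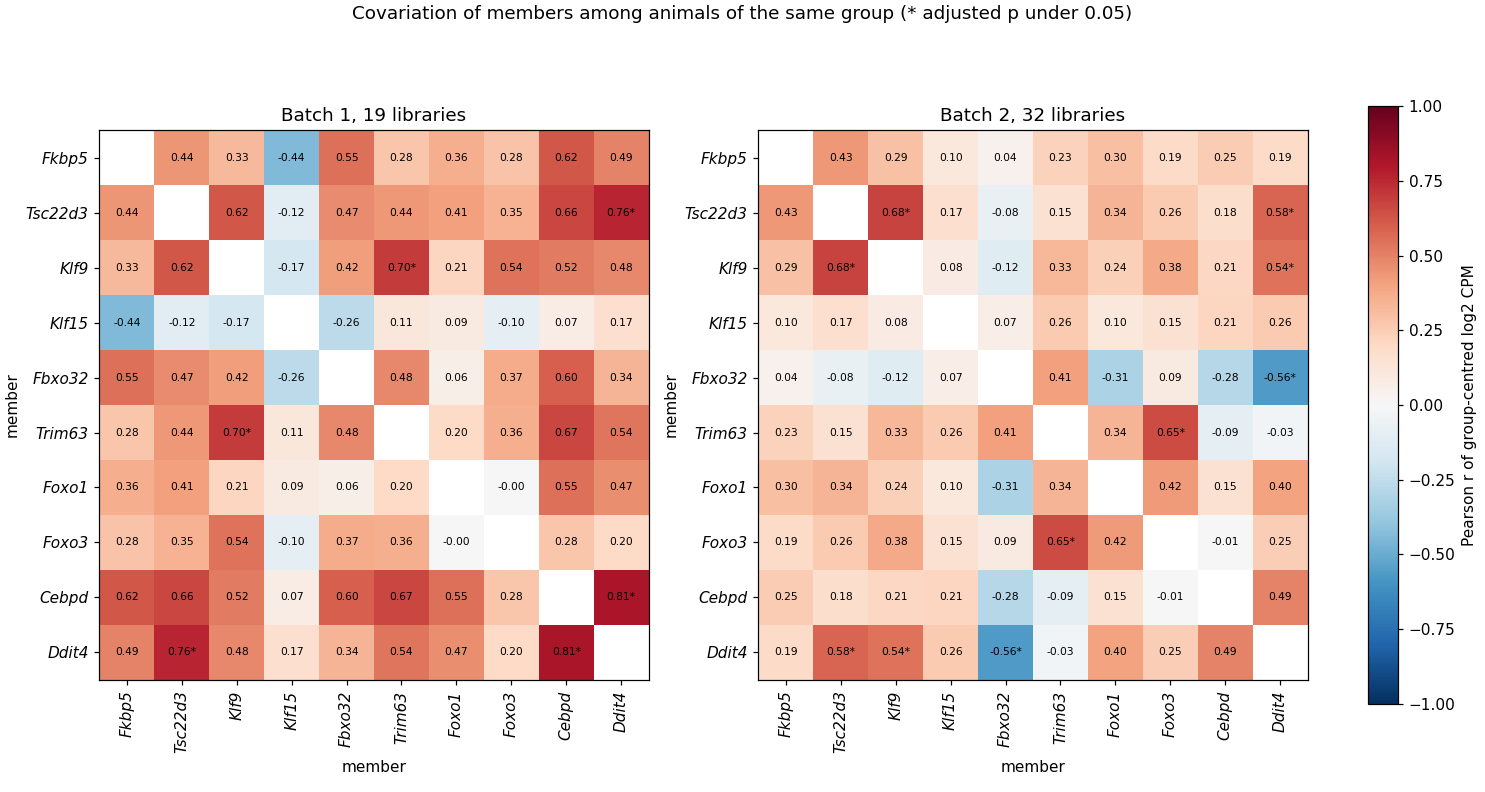
Pearson r of group-centred log2 CPM for each pair of members (rows and columns) in batch 1 (left, 19 libraries) and batch 2 (right, 32 libraries), from -1 (blue) to 1 (red); an asterisk marks an adjusted permutation p under 0.05. Most cells are red in both batches, the blue cells of batch 1 lie mostly with Klf15, and Fbxo32 with Ddit4 is red at 0.34 in batch 1 and blue at -0.56 in batch 2.

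The pair that passed in both batches was Tsc22d3 with Ddit4, with r = 0.76 in batch 1 and 0.58 in batch 2 (Spearman rho 0.71 and 0.61, adjusted permutation p = 0.0289 and 0.0352). Without the 2 farthest libraries r was 0.62 and 0.51 (adjusted permutation p = 0.165 and 0.0660). Tsc22d3 with Klf9 gave r = 0.68 in batch 2 (rho 0.64, adjusted permutation p = 0.0063) and 0.62 in batch 1 (rho 0.68, adjusted permutation p = 0.0692). Cebpd with Ddit4 gave the highest r, 0.81 in batch 1 (rho 0.84, adjusted permutation p = 0.0289), and Klf9 with Trim63 gave 0.70 there (rho 0.73, adjusted permutation p = 0.0289). Trim63 with Foxo3 gave 0.65 in batch 2 (rho 0.68, adjusted permutation p = 0.0289), and Klf9 with Ddit4 gave 0.54 (rho 0.52, adjusted permutation p = 0.0446).

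Fbxo32 with Ddit4 was the only pair that passed with a negative r, -0.56 in batch 2 (rho -0.54, adjusted permutation p = 0.0289), and without the 2 farthest libraries r was -0.40 (adjusted permutation p = 0.105). In batch 1 the same pair gave r = 0.34 (rho 0.32, adjusted permutation p = 0.370). Animals of batch 2 with more Ddit4 than their group thus had less Fbxo32. Batch 1 gave no such relation, and the difference between batches was not tested.

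**Figure D5:**
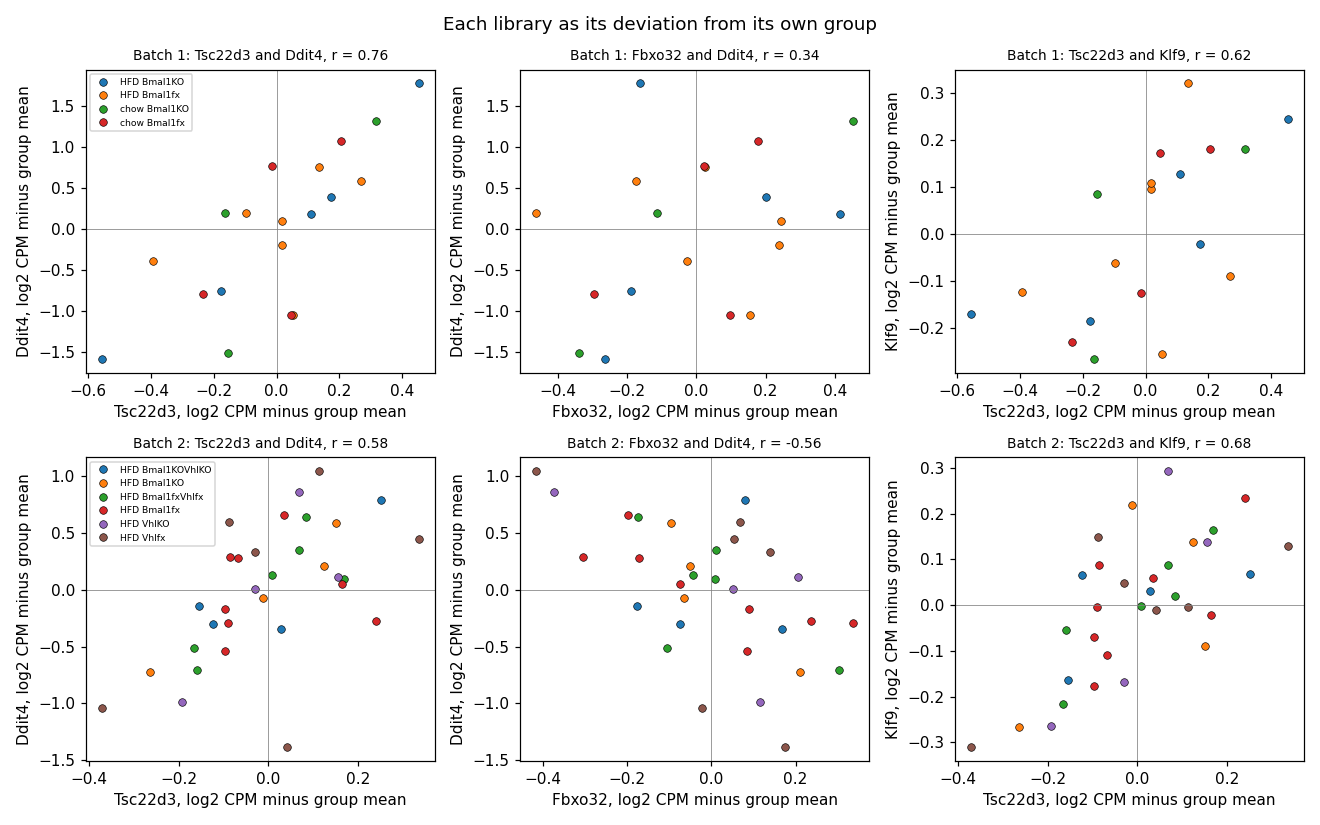
Each library as its deviation from its own group mean, in log2 CPM, for 3 pairs of members (columns) in batch 1 (upper row) and batch 2 (lower row), coloured by group. Tsc22d3 and Ddit4 rise together in both rows (r = 0.76 and 0.58), while Fbxo32 and Ddit4 slope down in the lower row alone (r = -0.56).

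Genes whose within-group pattern in batch 2 was most like that of a member were sought among 7660 genes. For Fbxo32 they included Pim1 (r = 0.72), Pdk4 (0.64), Nek9 (0.62) and Zfp280d (0.61) over 32 libraries. Over the 19 libraries of batch 1 Pim1, Pdk4, Nek9 and Zfp280d gave 0.09, 0.14, 0.33 and -0.09. For Fkbp5 they were Il1r1 (0.64), Ankrd13c (0.64), Ldah (0.60), Plbd1 (0.59) and Arhgap17 (0.58), which in batch 1 gave -0.32, -0.51, -0.23, -0.16 and 0.47.

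The other genes of the pathway were read from 5 lists, chosen with earlier results of these data known. A share of a list above that of all genes is therefore not independent support. Of the glucocorticoid receptor machinery (the receptor Nr3c1, its chaperones, cofactors and hormone enzymes), 9 of 12 genes were fitted. No gene of it passed for diet in either genotype. In the Bmal1 knockout over both batches 3 of 9 fell and 0 rose, where 11.3% and 11.1% of all genes did, namely Fkbp4 (-0.29 ± 0.05, edgeR adjusted p = 1.27e-05), a co-chaperone of the receptor, Nr3c1 (-0.24 ± 0.06, adjusted p = 0.00176) and the co-chaperone Ptges3 (-0.14 ± 0.05, adjusted p = 0.0466). Fkbp4 also fell with Vhl loss (-0.51 ± 0.07) and in the double knockout (-0.82 ± 0.07), with means of 45.8 ± 6.45 CPM in Bmal1KO;VhlKO and 80.7 ± 4.20 CPM in control muscle (SD, n = 4 and 6). The median log2 change of the list was -0.14 over both batches, against 0.0036 over all genes.

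Of the other glucocorticoid-induced genes, 21 of 22 were fitted. For diet, 1 rose and 5 fell in Bmal1KO muscle and 1 rose and 2 fell in controls, where 3.28% and 2.37% of all genes were called, with medians of -0.21 and -0.27 against -0.009 and -0.011 over all genes. Lpin1, a phosphatidate phosphatase, fell in both (-0.80 ± 0.11 in Bmal1KO muscle and -0.55 ± 0.10 in controls, edgeR adjusted p = 5.01e-05 and 0.00123), Zbtb16 fell in controls (-0.43 ± 0.11), and Angptl4, a lipase inhibitor that fatty acids also raise, rose in controls (0.89 ± 0.18, means of 25.9 ± 5.30 CPM on high-fat diet and 13.9 ± 2.57 CPM on chow; SD, n = 7 and 4). In Bmal1KO muscle Sesn1 (-1.42 ± 0.18) and Glul, glutamine synthetase (-1.15 ± 0.22), also fell. Sesn1 averaged 9.45 ± 0.332 CPM there on high-fat diet and 25.3 ± 9.99 CPM on chow (SD, n = 5 and 3). Chow controls averaged 10.9 ± 1.00 CPM (SD, n = 4), and Sesn1 was called higher in chow Bmal1KO muscle against them (1.22 ± 0.19, edgeR adjusted p = 5.97e-05). That change was 1.04 ± 0.22 (edgeR adjusted p = 0.00322) with both lymphocyte-rich libraries left out. Without both lymphocyte-rich libraries 1 gene of the list rose and 4 fell in Bmal1KO muscle and 1 rose and 2 fell in controls. Lpin1 was then -0.89 in Bmal1KO muscle and -0.58 in controls, Zbtb16 -0.47 and Angptl4 0.90 in controls, and Sesn1 -1.19 and Glul -1.20 in Bmal1KO muscle, and each of these was still called.

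For Bmal1 loss over both batches 3 of the 21 genes of that list rose and 5 fell, where 11.1% and 11.3% of all genes did. Glul fell by 1.10 (edgeR adjusted p = 1.11e-09), Zbtb16 by 0.50 and the transaminase Gpt2 by 0.48, while the metallothionein Mt1 rose by 1.33. Mt1 was higher in each knockout against its controls (1.37 ± 0.18 and 1.28 ± 0.22 for Bmal1 on high-fat diet in batches 1 and 2, 1.59 ± 0.24 for Vhl and 1.44 ± 0.23 for both). Receptor targets outside the 10 members thus went both ways. In the double knockout 5 rose and 3 fell, and with Vhl loss alone 4 rose and 5 fell. That is 8 and 9 of 21, shares near the 35.4% and 37.2% of all genes called.

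All 30 of the other FOXO and atrophy genes were fitted. For diet 0 rose and 5 fell in Bmal1KO muscle and 1 rose and 3 fell in controls, where 3.28% and 2.37% of all genes were called, with medians of -0.15 and -0.09. Without both lymphocyte-rich libraries 1 rose and 4 fell in Bmal1KO muscle and 1 rose and 3 fell in controls. Cited2 fell in Bmal1KO muscle (-1.11 ± 0.13) and Gadd45a, a growth arrest gene, in controls (-1.10 ± 0.21), with edgeR adjusted p = 3.12e-06 and 0.00436, and without those libraries they were -0.85 and -0.99, both still called. For Bmal1 loss over both batches 4 rose and 6 fell, 10 of 30 where 22.4% of all genes were called. The polyubiquitin gene Ubb rose by 0.43 and Sesn3 by 0.71, while Cited2 fell by 0.82 and the F-box gene Fbxo31 by 0.28. With Vhl loss 8 rose and 4 fell, and in the double knockout 9 rose and 4 fell. That is 12 and 13 of 30, shares near the 37.2% and 35.4% of all genes called. Bnip3, a mitophagy gene and HIF target, rose by 1.51 and 1.65 there, and Fbxo31 fell by 0.63 and 0.90 (edgeR adjusted p of at most 4.94e-09).

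Of the growth and TORC1 side all 18 genes were fitted. Akt1 fell and Akt2 rose with Bmal1 loss over both batches (-0.40 ± 0.06 and 0.37 ± 0.07, edgeR adjusted p = 2.52e-07 and 4.14e-05), where 1 gene rose and 4 fell, 5 of 18 beside 22.4% of all genes called. Ddit4l, a paralog of Ddit4, fell with Vhl loss (-1.01 ± 0.15) and in the double knockout (-0.81 ± 0.14), the comparisons in which Ddit4 rose. It averaged 157 ± 60.3 CPM in VhlKO and 316 ± 24.2 CPM in control muscle (SD, n = 4 and 6). In each of these comparisons 4 genes of the list rose and 7 fell, 11 of 18 where 37.2% (Vhl loss) and 35.4% (double knockout) of all genes were called.

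The denervation response, in which Trim63 and Fbxo32 are also known to rise, was read for contrast, with 8 of 10 genes fitted. For Bmal1 loss over both batches 4 rose and 1 fell, 5 of 8 where 22.4% of all genes were called, with a median of 0.77. This list too was chosen with earlier results known. The acetylcholine receptor subunits Chrna1 and Chrnb1 rose by 1.59 and 1.25, the muscle factor Myog by 1.38 and Mybph by 1.29 (edgeR adjusted p of at most 1.32e-08), in the comparison in which Fbxo32 and Trim63 fell. Chrna1 averaged 34.9 ± 6.28 CPM in Bmal1KO and 10.9 ± 1.70 CPM in control muscle of batch 2 (SD, n = 4 and 8). In the double knockout it rose by 2.69, with 4 of the list rising and 2 falling, 6 of 8 where 35.4% of all genes were called. With Vhl loss alone 3 of the list rose and 3 fell, where 37.2% of all genes were called, with a median of 0.017. Chrna1 was higher there (1.78 ± 0.15) and Mybph lower (-1.70 ± 0.33).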

How the data were processed

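Gene expression was measured in mouse gastrocnemius by QuantSeq 3′ mRNA sequencing of 51 animals. The authors deposited 1 table of gene counts and 1 of normalized counts for each batch. Per the submitters' processing notes, the tools were FastQC 0.11.4, STAR 2.6.0, HTSeq and edgeR 3.26.8, and the builds mm10 and GRCm38.p4, with no role stated for each. The deposited normalized counts, a signal scaled by the authors in each batch separately, were used in an alternative alone. The labels do not state whether strand was used in counting.

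From the deposited counts, each batch was fitted here with all of its groups in edgeR 4.0.16 (R 4.3.3): filterByExpr, TMM scaling, robust quasi-likelihood tests, and Benjamini-Hochberg adjustment over all genes fitted, with a threshold of 0.05. High-fat diet Bmal1 groups of both batches were fitted together on 48294 symbols present in both tables, since 27 symbols of batch 2 had become dates. Intervals are 95% and errors of log2 changes are SE. CPM are counts over TMM-scaled library size, and log2 CPM carries a prior count of 2. Depth was 6945247 to 14717795 counts, which gave Klf15 55 to 190 counts per library. PCR reads are not independent molecules, so depth covers counting error only. The labels number animals, and p-values measure the spread between them.

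The 10 members and all lists were chosen with earlier results of these data known. Of each of the 5 pathway lists, up to 4 called genes with the smallest p per comparison could be named, and the 5 genes most like Fkbp5 and Fbxo32 in batch 2 with an average log2 CPM of at least 2. A gene that this rule names is not reported here. Scripts were tested on simulated data. Alternatives were other scalings, DESeq2 1.42.0, limma 3.58.1, other filters, smaller fits, a replicate block and leaving out libraries. After the data were seen, the removal of both lymphocyte-rich libraries was added. Python 3.11.15, scipy 1.17.1 and matplotlib 3.10.9 served the pair tests and figures.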

Additional observations from a re-analysis of the deposited data

Results flagged for a closer look

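Among 90 sets of 1 member in 1 group of 4 to 8 animals, 8 held an animal set far from the rest of its group, where chance gives about 1 in 20, or 4.5. In Bmal1KO;VhlKO muscle Klf9 was 276 CPM in animal 3, with the next at 316 CPM, and Ddit4 was 249 CPM in animal 1, with the next at 130 CPM. In Control (Bmal1fx/fx;Vhlfx/fx) muscle Fbxo32 was 679 CPM in animal 1, with the next at 555 CPM. VhlKO animal 4 was high in Foxo1, at 26.4 CPM with the next at 19.2 CPM, and in Cebpd, at 48.2 CPM with the next at 40.4 CPM. In Control (Vhlfx/fx) muscle Cebpd was 52.2 CPM in animal 6, with the next at 34.8 CPM. In Bmal1KO muscle Fbxo32 was 319 CPM in animal 6 of batch 2, with the next at 266 CPM, and Trim63 was 138 CPM in animal 2 of batch 1 on high-fat diet, with the next at 257 CPM.

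Effects that differed between groups by a test of the difference itself were found for 3 members. The effect of the double knockout minus that of the Bmal1 knockout was 0.66 for Fbxo32 and 1.52 for Cebpd on the log2 scale (edgeR adjusted p = 0.00784 and 0.000294). The effect of the double knockout minus that of the Vhl knockout was -0.70 for Tsc22d3 (edgeR adjusted p = 0.00131).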

How the results depend on the processing

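Without library scaling factors the median of all genes moved by -0.18 for diet in controls, 0.16 and 0.12 for Bmal1 loss on high-fat diet (batch 1 and both batches), 0.35 for Vhl loss, 0.37 for the double knockout and 0.27 for the double minus the Bmal1 effect. The members called then numbered 8 for diet in controls, where 5.56% of all genes were called, and 1 for Bmal1 loss in batch 1, where 12.5% were. They numbered 7 for Vhl loss (49.6% of all genes) and 5 for the double minus the Bmal1 effect (21.4%). Tsc22d3 (0.33) and Klf9 (0.31) in the Vhl knockout and Klf9 (0.22) in the double knockout turned positive. For the alternatives that follow, the share of all genes called is not given, so their counts do not set the members apart. DESeq2 called 6 members for diet in Bmal1KO muscle, 5 for diet in controls and 5 for Bmal1 loss in batch 1. With both lymphocyte-rich libraries left out, an alternative chosen after seeing the data, 1 member was called for diet in controls and 0 for Bmal1 loss on chow. Same-numbered animals were not treated as paired, and correlations of their deviations ran from -0.29 to 0.17. With few same-numbered animals per comparison, these values cannot show that pairing is absent. In batch 2 the data headers and the titles number some Bmal1KO animals differently. The title numbers were used for these correlations and for the replicate block. With the replicate block 1 member was called for Bmal1 loss on high-fat diet in batch 1 and 2 over both batches, and the double minus the Bmal1 effect of Fbxo32 had an adjusted p of 0.0769. With 1 library left out in turn, members called ran from 3 to 4 for diet in Bmal1KO muscle, 1 to 4 for diet in controls, 1 to 4 for Bmal1 loss in batch 1, 1 to 1 on chow, 4 to 6 in batch 2, 6 to 7 over both batches, 2 to 5 for Vhl loss, 2 to 5 for the double knockout and 2 to 3 for the double minus the Bmal1 effect. By Spearman's rho 6 pairs passed in batch 1, and without the 2 farthest libraries 0 passed in either batch. The cause of these shifts was not tested. Of the other alternatives, 979 values kept direction and side of the threshold, 34 lost a call and 39 gained one. A further 25 changed direction without a call in either fit, and 3 changed direction with a call. With 1 library left out 1654 values kept both, 41 lost a call, 18 gained one and 77 changed direction without a call. Values uncalled in the main fit count as kept when they stay uncalled in the same direction. Limma on the normalized counts was not run over both batches, since the tables were scaled separately. Ddit4, with as few as 36 counts, Klf15 and Fkbp5 are the members most limited by depth.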
